A study of Mus musculus with 2 samples.

Results

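The AP-1 transcription factors examined here are the 10 genes Fos, Fosb, Fosl1, Fosl2, Jun, Junb, Jund, Atf3, Batf and Maff, chosen by symbol from the 32285 genes listed in each of 2 single-cell RNA libraries. Both libraries came from tumours of the pancreas in KPPC mice, an engineered mouse model of ductal cancer whose alleles and Cre driver the labels do not spell out. The vehicle library came from mice 6 weeks old given vehicle for 14 days, and the takinib library from mice of the same age given takinib, dosed at 50 mg/kg over 14 days. The drug blocks TAK1, the kinase encoded by Map3k7. Tumours were cut up, digested for 45 minutes at 37 °C and strained, and single cells were captured. The number of mice behind each library is not given, and each treatment has 1 library, so no test was possible and no p-value is given.

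AP-1 is a family of dimers built from basic leucine zipper proteins. Fos proteins bind DNA only as partners of Jun proteins, whereas Jun proteins also pair with each other, and Atf3, Batf and the small Maf protein Maff pair with Jun or Maf relatives and often repress or redirect the complex. Many of these genes are immediate-early genes, transcribed within minutes of a growth factor, cytokine or stress signal, and TAK1 stands upstream of JNK and p38, the kinases that activate Jun and Atf proteins. In pancreatic tumours AP-1 is known for driving inflammatory, wound and invasion programmes in tumour cells and fibroblasts. Immediate-early genes are also transcribed while tissue is being digested. Both libraries are labelled with the same digestion, and the part of that step in these values was not tested.

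The libraries stood apart in more than treatment. After the filters, 9558 vehicle and 25183 takinib cells were kept, with median depths of 3556 and 2887 UMIs (unique molecular identifiers, each 1 captured transcript) and median mitochondrial shares of 8.70% and 1.79%. The vehicle library held cells of both sexes, 1075 with Xist and no Y-linked UMI and 3087 with the reverse, whereas the takinib library held 0 Y-linked UMIs. The filtered barcodes of the libraries shared 400 sequences of 9872 and 26790. The share of neutrophil-like cells was 2.79% in vehicle against 46.4% in takinib, and their transcripts S100a8 and S100a9 were present in every takinib class. These differences coincide with the drug and cannot be told apart from it.

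Cells were clustered without the members, other immediate-early genes or heat-shock genes, and clusters were named from marker genes. Of the classes compared, 8 had a name and at least 100 cells in each library. These were macrophage-like (4099 vehicle and 3929 takinib cells), neutrophil-like (267 and 11676), epithelial-like (1707 and 1853), fibroblast-like (690 and 349), B-cell-like (240 and 1358), T-cell-like (251 and 1264), monocyte-like (167 and 758) and endothelial-like (710 and 101). Every marker of each class's own list was detected in both libraries, such as 12 of 12 in epithelial-like cells. A ninth group, cluster 3 (628 and 2395 cells, led by Gpnmb and Lpl), scored highest for macrophage markers but stayed unnamed, because the monocyte marker Chil3 was among its leading genes. The epithelial-like class pooled 4 clusters, of which cluster 16 was led by the stomach genes Gkn2 and Gkn1 and cluster 22 held the intestinal mucus gene Muc2 among its leading genes. Levels are UMI counts summed over a class and scaled by the total counts of that class to CPM, the usual unit for counts corrected for depth, with exact Poisson 95% intervals in brackets. Ratios are on the log2 scale, takinib over vehicle, with 10 CPM added on each side, so changes of low genes are understated. A gene is called past 2-fold at a log2 ratio of at least 1 or at most -1 with at least 50 counts in a library. The intervals cover counting error only, and since spread between animals is not known, no interval that does not overlap another is a replicate check.

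Upstream sequences are shown for 6 members, because the results below turn on Fos, Fosb, Jun, Junb and Atf3, and because Maff holds the sole full CRE among the members. They are the 250 bases before the RefSeq start site on GRCm38.p6, 5′ to 3′ on the gene's strand. Capitals mark matches, on either strand, to the AP-1 site TGANTCA, the cAMP response element (CRE) TGACGTCA, its core TGACG, the TATA box TATAAA, the CArG box bound by SRF or the NF-kB site. The core lies within every full CRE.
Fos (chr12:85473640-85473889, plus strand): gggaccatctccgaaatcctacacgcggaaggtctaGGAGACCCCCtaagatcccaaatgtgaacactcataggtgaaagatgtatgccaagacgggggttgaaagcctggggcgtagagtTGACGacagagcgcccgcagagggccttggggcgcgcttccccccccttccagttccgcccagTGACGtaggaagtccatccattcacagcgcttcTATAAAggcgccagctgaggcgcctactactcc
Fosb (chr7:19310046-19310295, minus strand): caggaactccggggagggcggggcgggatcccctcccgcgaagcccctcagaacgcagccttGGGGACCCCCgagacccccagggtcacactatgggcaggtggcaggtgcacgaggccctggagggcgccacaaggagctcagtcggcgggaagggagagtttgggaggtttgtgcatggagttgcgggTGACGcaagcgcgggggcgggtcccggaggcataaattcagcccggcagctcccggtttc
Jun (chr4:95052223-95052472, minus strand): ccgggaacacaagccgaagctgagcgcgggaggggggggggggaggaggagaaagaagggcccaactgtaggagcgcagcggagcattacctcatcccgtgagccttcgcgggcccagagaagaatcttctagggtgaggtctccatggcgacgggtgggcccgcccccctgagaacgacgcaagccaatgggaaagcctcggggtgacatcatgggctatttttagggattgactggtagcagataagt
Junb (chr8:84978749-84978998, minus strand): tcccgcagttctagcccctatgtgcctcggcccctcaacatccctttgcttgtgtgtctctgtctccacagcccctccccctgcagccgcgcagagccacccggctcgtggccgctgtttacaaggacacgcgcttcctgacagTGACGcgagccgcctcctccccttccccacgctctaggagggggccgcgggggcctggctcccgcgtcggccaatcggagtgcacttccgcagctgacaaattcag
Atf3 (chr1:191183334-191183583, minus strand): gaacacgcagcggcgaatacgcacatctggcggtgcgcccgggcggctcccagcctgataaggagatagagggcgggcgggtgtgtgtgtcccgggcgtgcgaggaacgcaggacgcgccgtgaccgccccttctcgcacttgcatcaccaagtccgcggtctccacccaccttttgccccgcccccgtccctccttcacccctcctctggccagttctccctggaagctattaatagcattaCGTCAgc
Maff (chr15:79347270-79347519, plus strand, its second window): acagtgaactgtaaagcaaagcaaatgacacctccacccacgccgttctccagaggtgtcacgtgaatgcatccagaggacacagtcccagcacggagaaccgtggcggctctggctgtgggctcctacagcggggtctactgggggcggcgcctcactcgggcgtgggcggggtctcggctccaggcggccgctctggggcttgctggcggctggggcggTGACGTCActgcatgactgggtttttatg

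RefSeq windows from 250 bases before to 50 after the start were found for 9 of the 10 members, 11 windows in all, and Fosl1 had none. A CRE core lay in windows of 6 members (Fos, Fosb, Junb, Atf3, Batf and Maff), against 20.8% of the 32851 promoter windows of the same length. Fos held 2 of them, at -129 and -66 from the start, followed by a TATA box at -33. The full CRE at -29 of Maff was the sole one among the members, in a motif found in 1.79% of all windows. NF-kB sites were matched in Fos, Fosb, Fosl2 and Maff, against 8.46% of windows, and TATA boxes in Fos and Junb, against 13.6%. The TATA match of Junb lay at 0 from its RefSeq start. No member window held an AP-1 site (7.81% of windows) or a CArG box (1.63%), and the windows of Jun and Jund held none of the 6 motifs. The windows follow RefSeq starts, which can differ from the GENCODE positions given below. The Jund window ends at 70697788, upstream of the GENCODE start at 70698949, and does not cover that start. A match describes letters in the window and says nothing of binding. The lack of one does not cover sites outside the window or sites with other letters.

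Over the 90 pairs of member and class, 83 had at least 50 counts in a library. Of these, 29 were past 2-fold higher in takinib, 1 was past 2-fold lower and 53 lay within 2-fold. Over all genes, the share past 2-fold higher ran from 1.66% in cluster 3 to 6.91% in B-cell-like cells. The share past 2-fold lower ran from 0.640% in cluster 3 to 14.9% in neutrophil-like cells. Fos was higher in 6 of 9 classes, Junb in 5, Jun and Fosb in 4 each, Batf in 3, Fosl1 and Maff in 2 each, and Fosl2, Jund and Atf3 in 1 each. Atf3 was also the one member called lower, in macrophage-like cells.

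**Figure D1:**
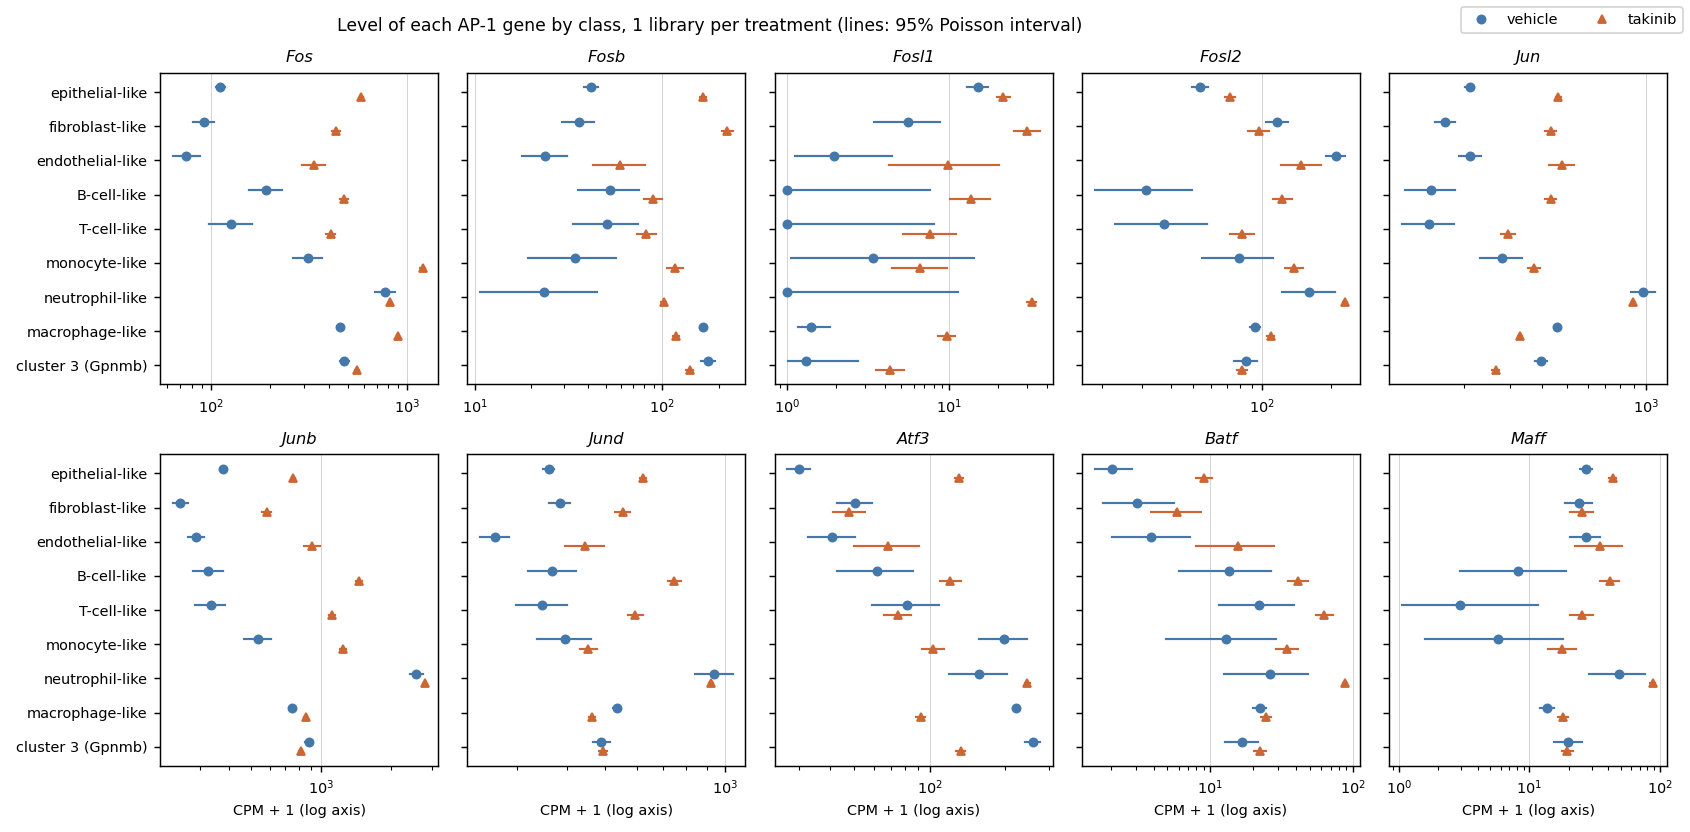
Level of each AP-1 gene (CPM plus 1, log axis, each panel on its own scale) in the 9 classes compared; circles are vehicle, triangles takinib, and lines are 95% Poisson intervals from counting alone. Fos in takinib lies to the right of vehicle in every class, though in neutrophil-like cells the intervals overlap. Takinib Atf3 lies to the left in macrophage-like cells, monocyte-like cells and cluster 3.

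Fos (ENSMUSG00000021250; chromosome 12, 85473890 to 85477273, plus strand, GENCODE M21 on GRCm38), the founding partner of Jun, was the member most often higher. In vehicle its level ran from 74.3 CPM in endothelial-like to 771 CPM in neutrophil-like cells. In takinib the same classes stood at 334 and 820 CPM, and the highest level was 1200 CPM in monocyte-like cells. The 6 classes compared that were lowest in vehicle were the ones past 2-fold, and neutrophil-like cells, macrophage-like cells and cluster 3 were not.

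In epithelial-like cells Fos had 1272 counts in vehicle, 111 CPM [105, 117], and 12401 counts in takinib, 584 CPM [573, 594], a log2 ratio of 2.29. In fibroblast-like cells it had 91.3 CPM [80.6, 103] and 434 CPM [413, 455], a log2 ratio of 2.13. In endothelial-like cells it had 74.3 CPM [63.2, 86.9] and 334 CPM [292, 380], a log2 ratio of 2.03. The intervals were apart in each of these 3 classes. Monocyte-like cells went from 311 CPM [260, 369] to 1200 CPM [1165, 1237] (log2 ratio 1.91), or 1.08 with cells classed one by one. Their 9 dendritic markers, all detected in both libraries, stood at 1238 CPM together with vehicle and 212 CPM with takinib, and their 9 monocyte markers at 4827 and 10711 CPM. The part of this shift in the monocyte-like values of the members was not tested. T-cell-like cells stood at 126 and 408 CPM (1.62) and B-cell-like cells at 190 and 476 CPM (1.28). Fos in macrophage-like cells was 456 CPM [446, 466] with vehicle and 898 CPM [886, 909] with takinib, a log2 ratio of 0.96, just inside the limit. Neutrophil-like cells had overlapping intervals, at 771 CPM [683, 868] and 820 CPM [809, 830].

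In vehicle the order of Fos began with neutrophil-like cells, then cluster 3 (478 CPM) and macrophage-like cells (456 CPM), whose intervals overlapped. Epithelial-like cells (111 CPM) overlapped T-cell-like cells (126 CPM) above them, and endothelial-like cells came last. In takinib, monocyte-like cells led, followed by cluster 25 (1042 CPM), an unnamed group of 459 cells led by interferon-response genes, and erythroid-like cells came last at 207 CPM.

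Fosb (ENSMUSG00000003545; chromosome 7, 19302696 to 19310051, minus strand), a Fos relative with a longer-lived splice product, was past 2-fold higher with Fos in epithelial-like, fibroblast-like and monocyte-like cells and was lower, within 2-fold, in macrophage-like cells. Endothelial-like cells had 48 and 40 counts, under the minimum for a call. Epithelial-like cells stood at 40.7 CPM [37.1, 44.6] with vehicle and 164 CPM [158, 169] with takinib, a log2 ratio of 1.78. In fibroblast-like cells it had 34.7 CPM [28.3, 42.2] and 221 CPM [206, 236], a log2 ratio of 2.37 and the highest of all 83 pairs with enough counts. In monocyte-like cells it went from 33.3 CPM, 14 counts, to 116 CPM (1.54), and the ratio was 0.04 with cells classed one by one. Takinib levels were higher without overlap of the intervals in these 3 classes. Macrophage-like cells stood at 164 CPM [158, 170] and 118 CPM [114, 122], a log2 ratio of -0.44 in the other direction. In neutrophil-like cells 8 vehicle counts gave 22.4 CPM [9.65, 44.1] against 100 CPM [96.9, 104] in takinib (1.77), and the sign turned when each library was clustered alone (-0.20).

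Fosl1 (ENSMUSG00000024912; chromosome 19, 5447547 to 5455946, plus strand), which encodes Fra-1, a Fos protein linked to RAS signalling and invasion, was scarce. Its highest vehicle level was in epithelial-like cells, 13.9 CPM [11.8, 16.2] from 159 counts, against 20.5 CPM [18.6, 22.5] in takinib (log2 ratio 0.35). In fibroblast-like cells 13 counts in vehicle (4.51 CPM [2.40, 7.72]) stood against 109 in takinib (29.2 CPM [24.0, 35.2]), a log2 ratio of 1.43. That difference was not kept when stress genes were left in the clustering (-0.02, with 553 and 102 cells). Neutrophil-like cells had 0 counts in vehicle and 897 in takinib, 31.2 CPM [29.2, 33.3]. The vehicle interval reached up to 10.3 CPM, below the takinib interval. B-cell-like and T-cell-like cells also had 0 vehicle counts, against 45 and 23 in takinib, under the minimum for a call. The intervals overlapped in T-cell-like cells, and the B-cell-like ratio was 0.16 in takinib cells low in S100a8 and S100a9.

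Fosl2 (ENSMUSG00000029135; chromosome 5, 32135801 to 32157842, plus strand), which encodes Fra-2, differed from the rest of the Fos family in where it was high. In vehicle it was highest in endothelial-like cells, 209 CPM [190, 229], which overlapped neutrophil-like cells at 159 CPM [121, 206]. In takinib, neutrophil-like cells stood at 229 CPM and endothelial-like cells at 147 CPM [120, 179]. Its ratio was below 0 in endothelial-like (-0.47), fibroblast-like (-0.25) and cluster 3 cells (-0.04). The one class past 2-fold was B-cell-like, from 17 counts (30.2 CPM [17.6, 48.4]) to 438 counts (122 CPM [111, 134]), a log2 ratio of 1.71.

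Jun (ENSMUSG00000052684; chromosome 4, 95049034 to 95052222, minus strand), the JNK substrate that gave the family its name, split the classes by direction. Epithelial-like cells had 210 CPM [201, 218] with vehicle and 461 CPM [452, 470] with takinib, a log2 ratio of 1.10. Fibroblast-like cells had 168 CPM [154, 184] and 430 CPM [409, 452], a log2 ratio of 1.302. Endothelial-like cells had 210 and 476 CPM (1.14), and B-cell-like cells 148 and 430 CPM (1.48). The reverse held in macrophage-like cells, with 453 CPM [443, 463] with vehicle and 327 CPM [320, 334] in takinib (-0.46). Cluster 3 went from 395 to 264 CPM (-0.57). Both of these stayed within 2-fold with intervals apart.

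Junb (ENSMUSG00000052837; chromosome 8, 84974484 to 84978718, minus strand), a Jun relative that can dampen Jun and is itself strongly inducible, stood at 2563 CPM [2400, 2734] and 2793 CPM [2773, 2812] in neutrophil-like cells, its highest level in vehicle. In takinib cluster 25 was above them, at 3006 CPM [2906, 3108]. Its ratios were highest in lymphocytes: B-cell-like cells stood at 324 CPM [279, 374] and 1453 CPM [1414, 1493] (log2 ratio 2.13), and T-cell-like cells 332 and 1114 CPM (1.71). Endothelial-like cells went from 288 to 914 CPM (1.63), fibroblast-like cells from 246 to 582 CPM (1.21) and monocyte-like cells from 532 to 1236 CPM (1.201). The monocyte-like ratio was 0.34 with cells classed one by one and stayed past 2-fold in 4 of 7 alternatives. Epithelial-like cells, at 376 and 757 CPM, fell just short of the limit with 0.99. Macrophage-like cells stood at 749 and 855 CPM, a log2 ratio of 0.19.

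Jund (ENSMUSG00000071076; chromosome 8, 70698949 to 70700616, plus strand), the Jun gene usually transcribed in resting cells, had the narrowest range of ratios. They lay between -0.21 in macrophage-like and 1.00 in B-cell-like cells, the one class past the limit (367 CPM [318, 420] and 745 CPM [717, 773]). Epithelial-like cells had 360 and 620 CPM (0.77). In neutrophil-like cells the intervals overlapped, at 939 CPM [841, 1045] and 923 CPM [912, 934].

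Atf3 (ENSMUSG00000026628; chromosome 1, 191170296 to 191218039, minus strand), a stress-induced factor that often represses its targets, had ratios past 2-fold in opposite directions in epithelial-like and macrophage-like cells. The epithelial-like difference lay mainly in cluster 6, as the values by cluster further on show. In epithelial-like cells it had 333 counts in vehicle, 29.1 CPM [26.1, 32.4], and 2770 in takinib, 130 CPM [126, 135], a log2 ratio of 1.84. In macrophage-like cells it had 3842 counts in vehicle, 221 CPM [214, 228], and 2338 in takinib, 91.0 CPM [87.4, 94.8], a log2 ratio of -1.19. The intervals were far apart in both, and the difference between the classes was not tested. Monocyte-like cells (197 and 102 CPM, -0.88) and cluster 3 (257 and 132 CPM, -0.91) were lower within 2-fold. Fibroblast-like cells did not differ beyond their intervals, 49.3 CPM [41.5, 58.1] and 46.8 CPM [40.2, 54.3]. The fibroblast-like ratio was -0.51 and -0.83 under the 2 neutrophil settings described below, but 1.08 with each library clustered alone. Its sign was kept in 6 of 12 alternatives.

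Batf (ENSMUSG00000034266; chromosome 12, 85686669 to 85709087, plus strand), which pairs with Jun proteins and IRF4 in lymphocytes, had its lowest vehicle levels in epithelial-like and fibroblast-like cells. Epithelial-like cells had 1.05 CPM in vehicle and 8.05 CPM [6.89, 9.35] from 171 counts in takinib, a log2 ratio of 0.71. T-cell-like cells had 21.02 CPM [10.5, 37.6] from 11 counts in vehicle and 62.2 CPM [54.2, 71.1] in takinib, a log2 ratio of 1.22. B-cell-like cells had 12.5 and 40.6 CPM (1.17), and neutrophil-like cells 25.1 and 87.3 CPM (1.47). Vehicle counts were 7 in B-cell-like and 9 in neutrophil-like cells, so the ratios rest on few molecules.

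Maff (ENSMUSG00000042622; chromosome 15, 79346621 to 79359076, plus strand), a small Maf protein without an activation domain of its own, was highest in neutrophil-like cells, at 47.5 CPM [27.7, 76.1] and 87.1 CPM [83.7, 90.6]. It was past 2-fold in B-cell-like and T-cell-like cells. B-cell-like cells went from 4 counts (7.12 CPM [1.94, 18.2]) to 145 counts (40.3 CPM [34.0, 47.4]), a log2 ratio of 1.56. T-cell-like cells had 1 count in vehicle, 1.91 CPM [0.0484, 10.6], and 84 in takinib, 24.2 CPM [19.3, 29.96]. In epithelial-like cells it stood at 26.3 and 42.4 CPM, a log2 ratio of 0.53.

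**Figure D2:**
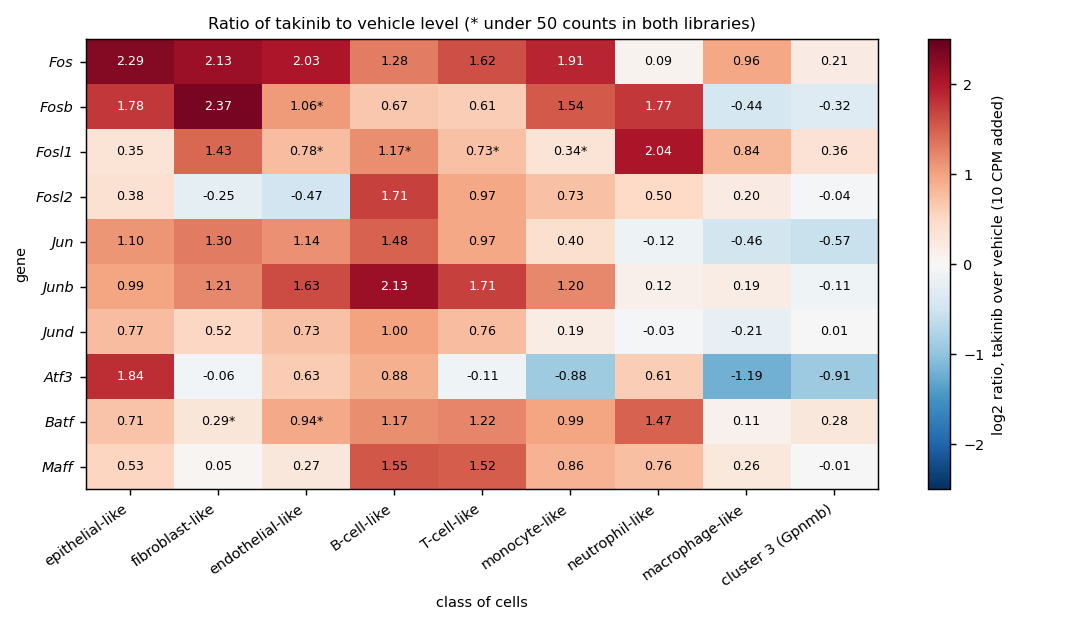
Log2 ratio of takinib over vehicle (10 CPM added to each level) for the 10 genes (rows) in 9 classes (columns); red is higher and blue lower in takinib, and an asterisk marks pairs under 50 counts in both libraries. Fos and Junb are red from epithelial-like to monocyte-like cells, and Atf3 is 1.84 in the epithelial-like column and -1.19 in the macrophage-like one.

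By class, the members are read against the share of all genes past the same limit. In epithelial-like cells 4 of 10 members with enough counts were past 2-fold higher and 0 lower, against 2.25% and 1.82% of 12493 genes. In fibroblast-like cells 5 of 9 were higher and 0 lower, against 4.44% and 5.75% of 8328 genes. Endothelial-like cells had 3 of 7 higher, against 3.64% of 6455 genes, and 0 lower, against 5.95%. Median member ratios were 0.88, 1.21 and 0.73 in these 3 classes, beside -0.09, -0.07 and -0.18 over all genes.

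B-cell-like cells had the most members past 2-fold, 7 of 9, against 6.91% of 6803 genes, with 0 lower against 1.63%. T-cell-like cells had 4 of 9, against 4.67% of 6880 genes, with 0 lower against 1.26%. In this class 7 natural killer cell markers stood at 87.9 CPM together with vehicle and 332 CPM with takinib. Of these, Klra4 was at 0 in vehicle. The 9 T-cell markers stood at 2385 and 1817 CPM. The part of this shift in the T-cell-like values was not tested. Monocyte-like cells had 3 of 9 higher, against 5.63% of 6486 genes, with 0 lower against 2.88%. In neutrophil-like cells 3 of 10 were higher, against 4.21% of 10062 genes, and 0 were lower, against 14.9%. The 3 were Fosb, Fosl1 and Batf, which had 8, 0 and 9 counts in vehicle. Macrophage-like cells had 0 of 10 higher, against 2.51% of 11033 genes, and 1 lower, against 1.62%. Cluster 3 had 0 of 10 in either direction, against 1.66% and 0.640% of 10153 genes.

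Neutrophil markers summed higher in takinib in all 9 classes. These included macrophage-like cells and cluster 3 (409 and 6956 CPM), which had 0 members past 2-fold higher. All 10 listed neutrophil markers were detected in each takinib class. Their summed level in epithelial-like cells was 134 CPM with vehicle and 9959 CPM with takinib. In fibroblast-like cells it was 134 and 10440 CPM, in macrophage-like cells 320 and 8299 CPM and in monocyte-like cells 2568 and 15641 CPM. In T-cell-like cells it was 550 and 17418 CPM, in endothelial-like cells 601 and 26362 CPM and in B-cell-like cells 696 and 38444 CPM. Of the list, Ngp and Camp were at 0 in vehicle B-cell-like cells, Retnlg and Camp in T-cell-like cells and Camp in monocyte-like cells. Since takinib neutrophil-like cells held 2793 CPM of Junb, 897 CPM of Jun, 820 CPM of Fos and 245 CPM of Atf3, the takinib sums were also corrected by removing a neutrophil profile scaled to S100a8 and S100a9.

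The subtraction removed 6.51% of takinib UMIs in epithelial-like, 7.12% in fibroblast-like and 26.8% in B-cell-like cells. Of the 26 pairs called higher outside neutrophil-like cells, 17 stayed past 2-fold and all 26 stayed above 0. Fos kept 2.25 in epithelial-like, 2.03 in fibroblast-like, 1.96 in monocyte-like, 1.49 in endothelial-like and 1.41 in T-cell-like cells, and fell to 0.84 in B-cell-like cells. Atf3 kept 1.76 in the epithelial-like class and -1.33 in the macrophage-like one. Junb went from 2.13 to 1.54 in B-cell-like cells, from 1.21 to 0.72 in fibroblast-like cells and from 1.63 to 0.78 in endothelial-like cells. Its monocyte-like ratio went from 1.201 to 0.997, within 2-fold. In B-cell-like cells Jun went from 1.48 to 0.77, Maff from 1.56 to 0.95 and Batf from 1.17 to 0.57, all to within 2-fold. Atf3 in endothelial-like cells went from 0.63 to -0.38. B-cell-like cells then had 2 members past 2-fold in place of 7, and endothelial-like cells 1 in place of 3.

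As a second view, chosen after the data were seen, each class was reduced to the takinib cells at or below its median share of S100a8 and S100a9. Of 23 such pairs with a value, 14 were past 2-fold and all 23 above 0. Fos was 2.20 in epithelial-like, 2.03 in fibroblast-like and 1.78 in monocyte-like cells. B-cell-like cells had 2 members past 2-fold, here Fos at 1.05 and Junb at 1.12, with Fosl2 at 0.78, Jun at 0.30 and Maff at 0.09. In T-cell-like cells Jun turned to -0.12, while Fos (1.56) and Junb (1.19) stayed past 2-fold. Atf3 in macrophage-like cells stood at -1.54.

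**Figure D3:**
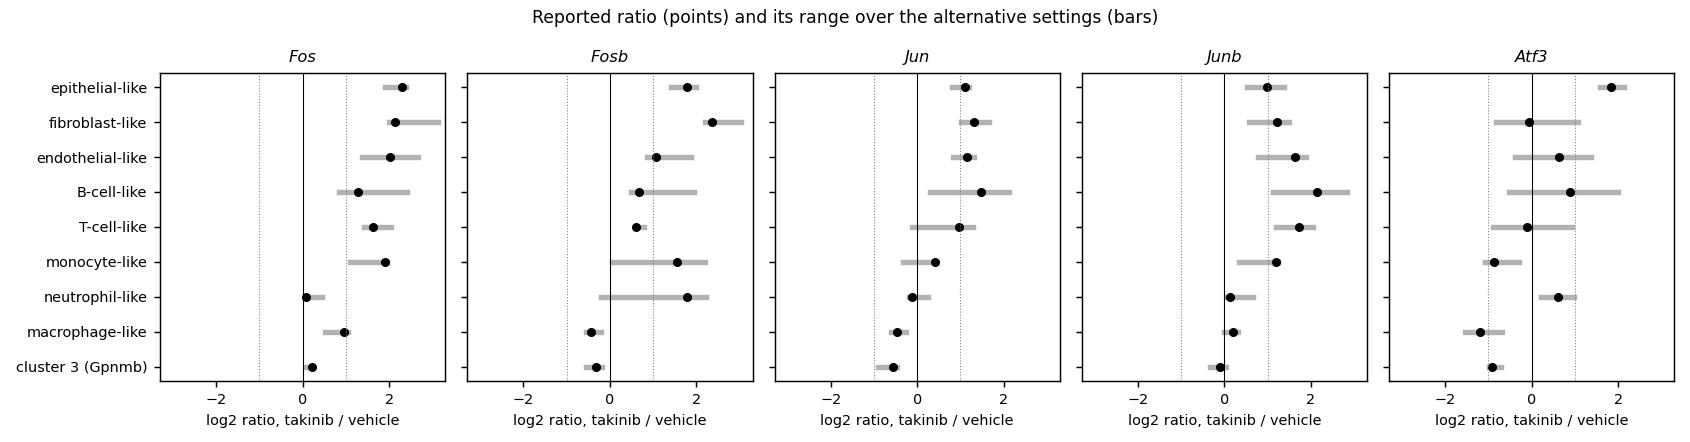
Reported log2 ratio (points) of 5 members in each class and its range over the alternative settings (bars), with dotted lines at 2-fold. Fos stays above 0 in every class and Atf3 stays on opposite sides of 0 in the epithelial-like and macrophage-like classes, while Jun in T-cell-like cells crosses 0.

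The differences in epithelial-like cells were not the same in its clusters. Cluster 6 (1091 vehicle and 1443 takinib cells, led by Dmbt1 and Mmp7) had 5 of 10 members past 2-fold, against 2.22% of all genes. Cluster 7 (493 and 105 cells, led by Tnc and Tm4sf1, with Cdkn2a) had 3 of 9, against 3.04%. Fos was higher in both, from 114 to 603 CPM in cluster 6 (2.30) and from 110 to 378 CPM in cluster 7 (1.69). Atf3 went from 19.4 to 138 CPM in cluster 6 (2.33) but from 42.6 to 53.9 CPM in cluster 7 (0.28). Junb was 1.38 in cluster 6 and 0.10 in cluster 7. Fosl1 had its highest takinib level among these clusters in cluster 7, at 49.0 CPM, where vehicle stood at 28.0 CPM. In cluster 6 takinib Fosl1 was 18.9 CPM, above the vehicle level of 5.88 CPM. The difference of these ratios between clusters was not tested.

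Macrophage-like cells were spread differently over clusters: vehicle cells lay mainly in cluster 2 (2588 cells, led by H2-Ab1) and cluster 4 (1067, led by Alox15), takinib cells mainly in cluster 11 (2638, led by Saa3, with 11 vehicle cells). Within clusters that held both libraries, Fos differed less than over the class, with ratios of 0.31 in cluster 2, 0.28 in cluster 4, 0.58 in cluster 18 and 0.85 in cluster 0. The takinib cells of cluster 11 had the highest Fos of these, 1017 CPM, beside the class ratio of 0.96. Atf3 was lower in all 4, with ratios of -2.24 in cluster 4 (264 and 48.0 CPM), -1.14 in cluster 0, -0.98 in cluster 2 (219 and 106 CPM) and -0.44 in cluster 18. In clusters 4 and 0 it was the 1 member past 2-fold lower, against 1.00% and 1.09% of all genes, with 0 members higher against 1.06% and 2.35%. Cluster 2 had 0 members past 2-fold, against 0.753% of genes higher and 0.764% lower. Cluster 18 likewise had 0, against 3.18% and 1.39%. Atf3 was lower within each of these 4 clusters as well as over the class, whose ratio went to -0.68 with doublets kept.

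In neutrophil-like cells the vehicle library was almost wholly in cluster 12 (256 of 267 cells), so cluster 12 alone gives a comparison of like clusters. There Fos was 786 and 1541 CPM (0.96), above its ratio of 0.09 over the class. Fosb was 24.3 and 143 CPM (2.16), and 3 of 10 members were past 2-fold, against 6.57% of genes. The others were Fosl2 (155 and 323 CPM) and Fosl1, which had 0 vehicle counts and 22.7 CPM in takinib. Atf3, at 167 and 109 CPM, was below 0 in cluster 12 (-0.57) although it was above 0 over the class (0.61). The takinib neutrophil-like clusters that held almost no vehicle cells differed among themselves: Atf3 was 367 CPM in cluster 15 (led by Ccl4 and Ccl3), 271 CPM in cluster 24, 190 CPM in cluster 13 and 54.9 CPM in cluster 9. Maff was also highest in cluster 15, 130 CPM, against 24.7 CPM in cluster 9.

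**Figure D4:**
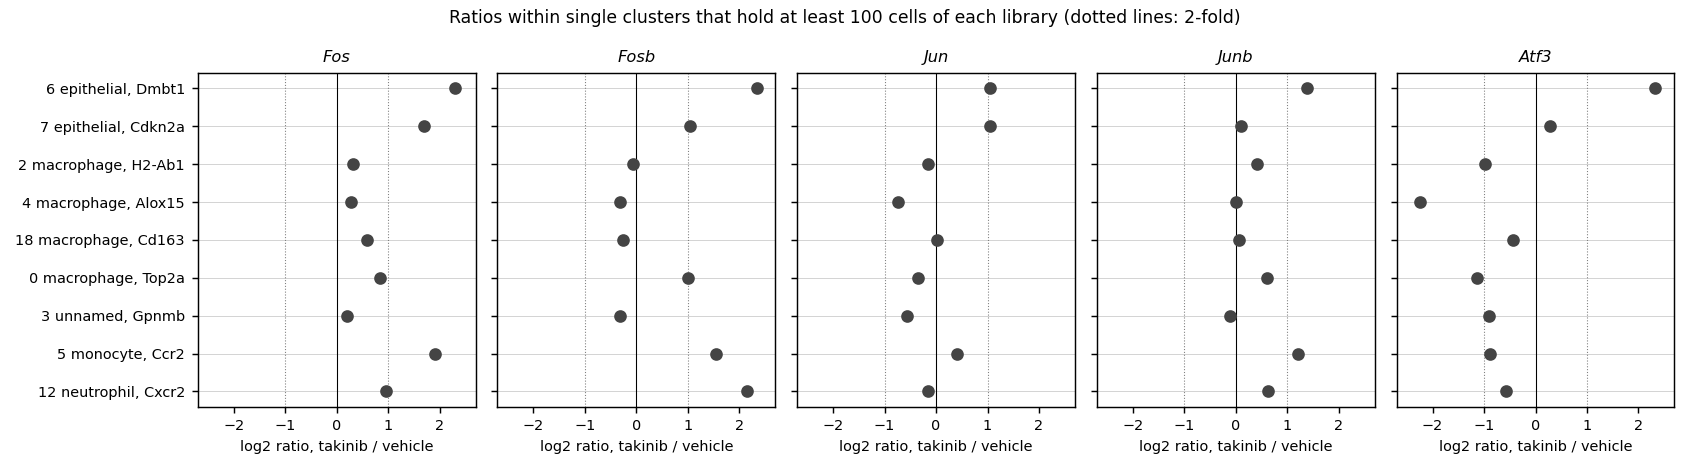
Log2 ratio of takinib over vehicle for 5 members within single clusters that held 100 or more vehicle and takinib cells; dotted lines mark 2-fold and each point is 1 cluster. Atf3 lies left of 0 in the macrophage clusters (-2.24 in cluster 4) and right of it in epithelial cluster 6 (2.33), and Fos lies right of 0 in every cluster shown.

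The sex of origin was examined because the takinib library held 0 Y-linked UMIs. In epithelial-like cells the takinib level of all 10 members was above that of female and of male vehicle cells (206 and 818 cells). For Maff, however, the intervals of takinib, 42.4 CPM [39.7, 45.3], and female cells, 40.5 CPM [30.5, 52.9], overlapped. So did those of Fosl1 in takinib, 20.5 CPM [18.6, 22.5], and in male cells, 15.6 CPM [12.7, 18.9]. Fos was 149 CPM in female and 118 CPM in male vehicle cells against 584 CPM in takinib, log2 ratios of 1.90 and 2.21. Against female cells Jun was 0.80, below the limit, in place of 1.10, Junb 0.62 in place of 0.99 and Jund 0.39 in place of 0.77. In fibroblast-like cells (137 and 231 vehicle cells) Fos stood at 77.5 and 77.2 CPM in female and male cells against 434 CPM. Fosb stood at 26.5 and 26.0 CPM against 221 CPM. Female and male vehicle fibroblast-like cells differed little in these 2 members, but Junb was 320 CPM in female and 202 CPM in male cells. In macrophage-like cells Atf3 was 187 CPM in female and 219 CPM in male vehicle cells and 91.0 CPM in takinib, ratios of -0.96 and -1.18.

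**Figure D5:**
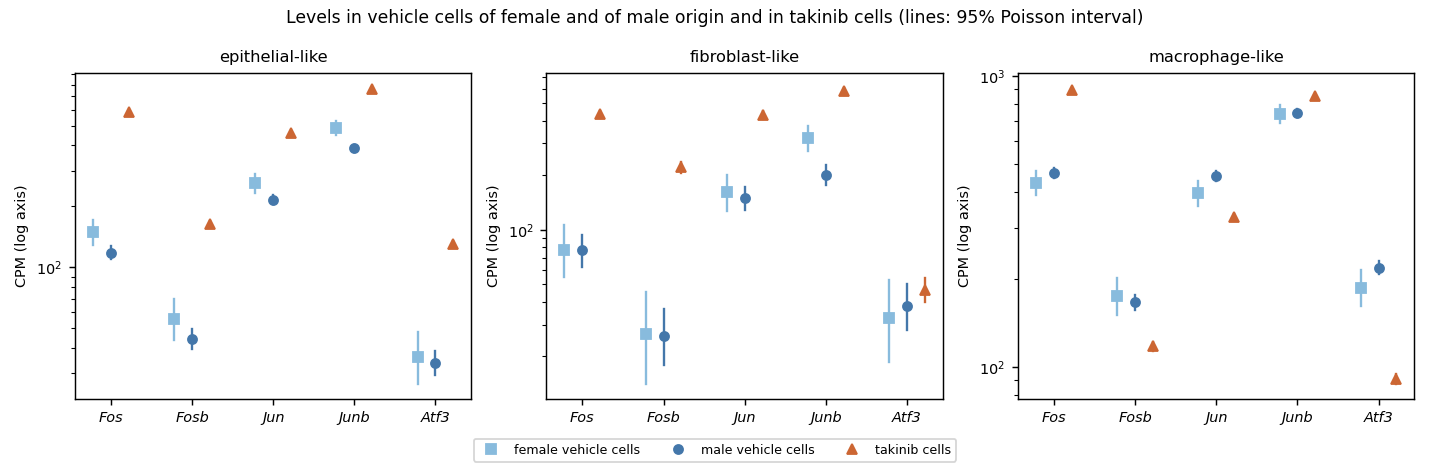
Levels (CPM, log axis) of 5 members in vehicle cells of female origin (squares), of male origin (circles) and in takinib cells (triangles), with 95% Poisson intervals from counting alone, in 3 classes. Takinib Fos lies above both kinds of vehicle cell in all 3 classes (584 CPM against 149 and 118 in epithelial-like cells), and takinib Atf3 lies below both in macrophage-like cells.

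Shares of cells with a UMI were read after thinning every cell to 1000 UMIs. Among epithelial-like cells Fos was found in 9.43% with vehicle and 34.2% with takinib (33.8% and 75.6% unthinned, median depths 5093 and 9217 UMIs). It was found in 5.65% and 33.8% of fibroblast-like cells (15.9% and 67.6% unthinned, median depths 3400 and 7706 UMIs). For comparison with classes not known for these genes, Fos was in 5.07% of vehicle perivascular-like cells (median depth 3088 UMIs) and in 21.1% of takinib erythroid-like cells (4742 UMIs). The vehicle fibroblast-like share was thus near the comparison class, and takinib shares of epithelial-like and fibroblast-like cells were above theirs. Shares of Fos went from 6.48% to 16.8% in endothelial-like, from 6.37% to 21.5% in T-cell-like and from 10.8% to 23.2% in B-cell-like cells. These takinib shares were not above the erythroid-like share beyond its interval [17.8, 24.8], although their levels in CPM were above the 207 CPM of erythroid-like cells.

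Atf3 was found in 1.87% and 8.85% of the epithelial-like class and in 15.5% and 8.50% of the macrophage-like one, vehicle first (10.3%, 35.9%, 38.5% and 30.2% unthinned). Perivascular-like cells had 1.52% in vehicle, and erythroid-like cells 5.65% in takinib. Cells with no UMI of any member at this depth were 38.7% [36.4, 41.1] of the epithelial-like class in vehicle against 18.8% [17.0, 20.6] in takinib. Cells with 3 or more members made up 6.33% [5.22, 7.59] and 31.6% [29.5, 33.8]. Among macrophage-like cells the latter shares were 29.1% and 32.6%. Free RNA in vehicle, taken from 376283 barcodes of 1 to 100 UMIs, held 227 CPM [192, 266] of Fos and 107 CPM [83.7, 136] of Atf3. Both are above the vehicle epithelial-like levels. The takinib file begins at 500 UMIs a barcode, so no such level was computed for it, and the part of free RNA in the results was not tested.

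Other genes of the pathway were read as lists, whose counts stand against the shares of all genes given by class above. Of 13 kinases and adaptors above AP-1, among them Map3k7 and the JNK genes, 0 were past 2-fold in either direction in epithelial-like, fibroblast-like, macrophage-like, T-cell-like, monocyte-like and neutrophil-like cells and in cluster 3. Mapkapk2, a kinase activated by p38, was past it in B-cell-like cells (51.6 and 185 CPM, 1.66). Mapk8, which encodes JNK1, was lower in endothelial-like cells (63.0 and 23.4 CPM, -1.13). Map3k7 itself stood at 36.7 and 25.1 CPM in the epithelial-like class (-0.41). Enough counts were reached by 13 of them in the epithelial-like and 11 in the fibroblast-like class, where 2.25% and 4.44% of all genes were past 2-fold higher, so counts of 0 are near the background.

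Of the 7 MAPK phosphatases, which switch those kinases off, Dusp1 was past 2-fold in 7 of the 9 classes, such as epithelial-like (97.8 and 438 CPM, 2.06), B-cell-like (203 and 1067 CPM, 2.34) and endothelial-like cells (147 and 626 CPM, 2.02). It stayed within 2-fold in macrophage-like cells (666 and 1027 CPM, 0.62) and in cluster 3. Of the listed phosphatases with enough counts, 1 of 7 was higher in epithelial-like and 3 of 5 in B-cell-like cells. In endothelial-like cells 1 of 3 was higher and 1 lower, with a list median of -0.46 beside -0.18 over all genes. Neutrophil-like cells had 2 of 7 higher and 1 lower. Of the 8 regulators of the SRF and CREB kind, which act on the promoters of immediate-early genes, 0 were past 2-fold in 8 of the 9 classes, and Crem was past it in B-cell-like cells, from 1 count in vehicle to 55 in takinib.

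Of 16 other immediate-early genes, 6 of 16 with enough counts were higher and 1 lower in epithelial-like cells, beside 2.25% and 1.82% of all genes. These included Zfp36 (74.4 and 316 CPM, 1.95), which encodes an RNA-destabilising protein, and Egr1 (98.0 and 395 CPM, 1.91), a zinc-finger factor. Fibroblast-like cells had 4 of 14 higher and 1 lower, and B-cell-like cells 9 of 13 higher. Macrophage-like cells had 2 of 15 higher and 3 lower, with Ier3 at 257 and 977 CPM (1.88) but Egr2 at 58.4 and 17.1 CPM (-1.34). Macrophage-like cells thus had immediate-early genes past 2-fold in both directions.

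Of the 10 heat-shock genes, which also respond to stress during tissue handling, none was past 2-fold higher in any class except Dnajb1 in neutrophil-like cells (1.00). Hspa1a, an inducible chaperone, stood at 256 and 6.18 CPM in monocyte-like cells (-4.04) and at 45.2 and 16.1 CPM in macrophage-like cells (-1.08). Hsph1, another chaperone, was lower in the epithelial-like class (62.6 and 17.8 CPM, -1.38). Their part in the member values was not tested.

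Of 18 genes known as AP-1 targets, fibroblast-like cells had 7 of 15 higher and 0 lower, beside 4.44% and 5.75% of all genes. They included Ptgs2, the inducible cyclooxygenase (23.3 and 258 CPM, 3.01), Mmp3, a matrix protease (38.2 and 342 CPM, 2.87), and Timp1, an inhibitor of such proteases (1659 and 5424 CPM, 1.703). With stress genes left in the clustering, the fibroblast-like class held 553 vehicle and 102 takinib cells. An unnamed cluster led by Dcn and Serpinb2, with Timp1 among its leading genes, then held 138 and 247. The part of such a difference in make-up in the fibroblast-like values was not tested. In epithelial-like cells 3 of 17 were higher and Cd44, a hyaluronan receptor, was lower (790 and 384 CPM, -1.02), with a list median of -0.27 beside -0.09 over all genes. Neutrophil-like cells had 4 of 14 higher and 3 lower, where 4.21% and 14.9% of all genes were, with Hmox1 at 44.7 and 295 CPM (2.48) and Hbegf at 154 and 19.9 CPM (-2.45). Of other leucine zipper partners, Cebpb was past 2-fold higher in B-cell-like, T-cell-like, endothelial-like, epithelial-like and monocyte-like cells, and Batf3, a relative of Batf, was lower in macrophage-like (35.6 and 7.75 CPM, -1.36) and monocyte-like cells (-1.94). Batf3 is itself one of the 9 dendritic markers, whose sum also went from 52.4 to 14.9 CPM in macrophage-like cells, beside the monocyte-like values above. The part of that shift was not tested.

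Genes most like each member were ranked by Pearson's r of log2(CPM + 10) over 16 profiles, the 8 named classes in 2 libraries, among 11811 genes. The profiles share libraries and depth, so r is a description only. Junb was most like Il1rn (0.98), which encodes the interleukin-1 receptor antagonist, Ier2 (0.97) and Ccrl2 (0.97). Jund was most like Egr1 (0.94), Jun like Il1rn (0.92), Fos like Rab24 (0.91) and Fosl1 like Ubb (0.92). Atf3 (0.85 with Fuca2) and Fosb (0.83 with Tpi1) had the weakest leading values. Among the members, the Jun genes had the closest profiles, with 0.90 for Jun and Junb and 0.89 for Junb and Jund, followed by Fos and Junb at 0.85. The lowest value was -0.03, for Fosb and Fosl2.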

How the data were processed

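Single-cell RNA was measured in 1 vehicle and 1 takinib library, with groups taken from the labels. The authors deposited UMI counts for every gene and barcode without normalization, made with Cell Ranger 4 (vehicle) and 6.1.1 (takinib) per the file headers. The submitters' processing notes list Cell Ranger 2.1.1, bcl2fastq, STAR 2.0.4b, Subread, featureCounts 1.45 and mm10, with no role stated. The vehicle file held 704261 barcodes and 80850334 UMIs, the takinib file 34158 and 139292875, with no takinib barcode under 500 UMIs. The lower limit of the takinib file means that shallow barcodes had been removed from it alone.

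Cells with at least 1000 UMIs, 500 genes and at most 20% mitochondrial UMIs were kept. Scrublet removed 314 vehicle cells at its automatic threshold; in takinib that threshold marked 1 cell, so the 1607 cells of highest score (6%) were removed. Clustering of the pooled cells used scanpy 1.11.5 (2000 variable genes less 36 members, immediate-early and heat-shock genes, 30 components, 15 neighbours, Leiden resolution 1, igraph 0.11.9). A cluster was named from markers of 19 classes with 3 markers detected in 10% of cells, unless a second class reached 0.75 of the best score or had more leading genes. This naming rule was set after the clusters were seen. Counts were summed per class and library, and genes with under 50 counts in both libraries were not called. The ratio code was tested on simulated data. Intervals are exact Poisson or Clopper-Pearson at 95% and cover counting error only. The named genes were all members, the 3 highest and 3 lowest of each pathway list in a class, and the 3 most alike per member over genes with at least 500 counts. The members and lists were chosen with earlier results of these data known. Promoters were RefSeq windows on GRCm38.p6 and gene positions GENCODE M21. For each class, 11 other settings and 1 chosen after seeing the data were tried where at least 100 cells of each library remained, and ratios were also taken within single clusters.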

Additional observations from a re-analysis of the deposited data

Results flagged for a closer look

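Atf3 went past 2-fold in opposite directions in different classes. Its log2 ratio of takinib over vehicle was 1.84 in epithelial-like cells and -1.19 in macrophage-like cells. With 1 library per treatment the difference was not tested. The epithelial-like ratio stayed between 1.57 and 2.13 and the macrophage-like ratio between -1.54 and -0.68 over the 12 alternatives of each class. Neutrophil transcripts, depth and sex of origin differed between the libraries in both classes, and their values are given with the results.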

How the results depend on the processing

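Each class had values under 7 to 12 of the 12 alternatives, the others leaving under 100 cells in a library. The 29 pairs of member and class past 2-fold higher gave 270 alternative values, of which 268 stayed above 0 and 236 past 2-fold. The single lower pair gave 12, all below 0 and 8 past 2-fold. The 2 reversals were Fosl1 in fibroblast-like cells at -0.015 with stress genes left in the clustering (553 and 102 cells) and Fosb in neutrophil-like cells at -0.204 with each library clustered alone (417 and 12095 cells). The causes of these were not tested. The count of members higher in B-cell-like cells went from 7 to 2 with the neutrophil profile subtracted, to 4 with cells classed one by one and to 2 in takinib cells low in S100a8 and S100a9. In endothelial-like cells it went from 3 to 1 with the profile subtracted. In monocyte-like cells it went from 3 to 5 with 1 CPM added and to 1 with cells classed one by one. The count lower there went from 0 to 1 with the profile subtracted and to 1 in takinib cells low in S100a8 and S100a9. In macrophage-like cells the count higher went from 0 to 1 with 1 CPM added and to 1 against female vehicle cells. Its count lower went from 1 to 0 with doublets kept, with cells thinned to 1000 UMIs, against female vehicle cells and with stress genes left in. In cluster 3 the count higher went from 0 to 1 with 1 CPM added. The median ratio of all genes was -0.365 in neutrophil-like and -0.179 in endothelial-like cells, and setting it to 0 turned Jun and Jund above 0 in neutrophil-like cells. Vehicle sums under 20 counts limit precision, among called pairs for Fosb, Fosl1 and Batf in neutrophil-like, Fosl2, Batf and Maff in B-cell-like, Batf and Maff in T-cell-like, Fosb in monocyte-like (14 counts; 0.044 with cells classed one by one) and Fosl1 in fibroblast-like cells (13 counts). No paired analysis was possible because each treatment had 1 library.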
